A study of Mus musculus with 8 samples.

Results

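The 47 genes described here encode proteins that carry a cell through G2 and mitosis: cyclins, mitotic kinases, kinetochore and spindle proteins, regulators of anaphase and cytokinesis, and condensin subunits, together with the proliferation markers Mki67 and Top2a. They were chosen by name, as the entries of the deposited gene table whose symbol was on a list of such genes, a rule that uses no measured value, although earlier results of these data were known when the list was drawn up. All 47 were among the 16096 genes of the table, and all 47 were among the 15014 genes with enough counts to be tested. Total RNA of dissected peripheral retina was sequenced in 8 libraries, from C57BL/6 mouse embryos of embryonic day 16.5. In 4 libraries, labelled cKO (conditional knockout), the genotype was Pax6alpha-Cre:Ezh2fl/null, and in the 4 control libraries it was Pax6alpha-Cre:Ezh2fl/+. Every embryo thus carried the Pax6alpha-Cre driver, which is active in the peripheral retina, and a loxP-flanked (fl) Ezh2 allele, and the groups differ in the other Ezh2 allele, null or wild type. Cells of the dissected tissue in which Cre did not act still hold a functional Ezh2 allele in both groups. The labels do not state whether the libraries came from separate embryos or litters, so the p-values reflect only how these samples vary.

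Ezh2, which encodes the catalytic subunit of Polycomb repressive complex 2, was not lower in the libraries labelled cKO when reads were counted over the whole gene. It stood at 276, 251, 255 and 220 CPM (read counts scaled to the normalised library size) in cKO replicates 1 to 4, against 235, 230, 197 and 207 CPM in control replicates 1 to 4. The log2 fold change was 0.21 (SE 0.07; edgeR adjusted p = 0.0701). It passed, as higher, in 3 of 18 alternatives, among them without cKO replicate 4 (log2 0.26; edgeR adjusted p = 0.0129). A whole-gene count does not test the deletion of single exons, and each direction given here is that of the libraries labelled cKO against those labelled control. Total counts ran from 13994825 to 18391647 per library. By Xist and the Y-linked genes, cKO replicates 2 and 3 were from female embryos and the other 6 libraries from male embryos.

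Retinal progenitor cells divide at the outer surface of the embryonic retina, after their nuclei have moved there from the inner side, and the transcripts of G2 and mitosis genes build up as each progenitor passes from S phase to division. Many of these genes share promoter elements, the cell cycle genes homology region (CHR) and CCAAT boxes, through which the DREAM complex represses them in resting cells and the MYB-MuvB complex and FOXM1 activate them in G2. Neurons that have left the cell cycle hold little of these transcripts, so their level in a whole tissue follows both the share of dividing cells and the RNA per dividing cell. In these bulk libraries, fewer dividing cells and less of each RNA per cell cannot be told apart.

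The G2 and mitosis genes stood slightly and almost uniformly lower in the libraries labelled cKO. The fitted log2 fold change was below 0 for 46 of the 47 genes, where 52.4% of all genes tested were below 0. Their median log2 fold change was -0.10, a difference of -6.53%, against a median of -0.01 over all genes tested. The single gene above 0 was Pttg1, the securin gene. Singly, few of these differences passed the test over all genes: 2 of the 47 genes fell at an adjusted p under 0.05 (edgeR). They were the condensin subunit gene Ncapd2 and the inner centromere protein gene Incenp, where 3.46% of all genes tested were called lower. None of the 47 was called higher, where 8.35% of all genes tested were. At an unadjusted p under 0.05, 16 of the 47 were below 0, against 10.2% of all genes tested. In 9 of the 47 all cKO libraries lay below all controls, against 6.21% of all genes tested. In none did all cKO libraries lie above all controls, where 1516 of the 15014 genes tested did so. Apart from Pttg1, the log2 fold changes ran from -0.21 to -0.00, with standard errors of 0.04 to 0.09. Scaling by library size alone gave 45 of 47 below 0 (Hmmr and Pttg1 above) and 0 genes called, with a median of -0.08 for the 47 against 0.02 for all genes. The authors' deposited table lists log2 ratios below 0 for the same number, 46, with a median of -0.10 and a range of -0.21 to 0.12.

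**Figure D1:**
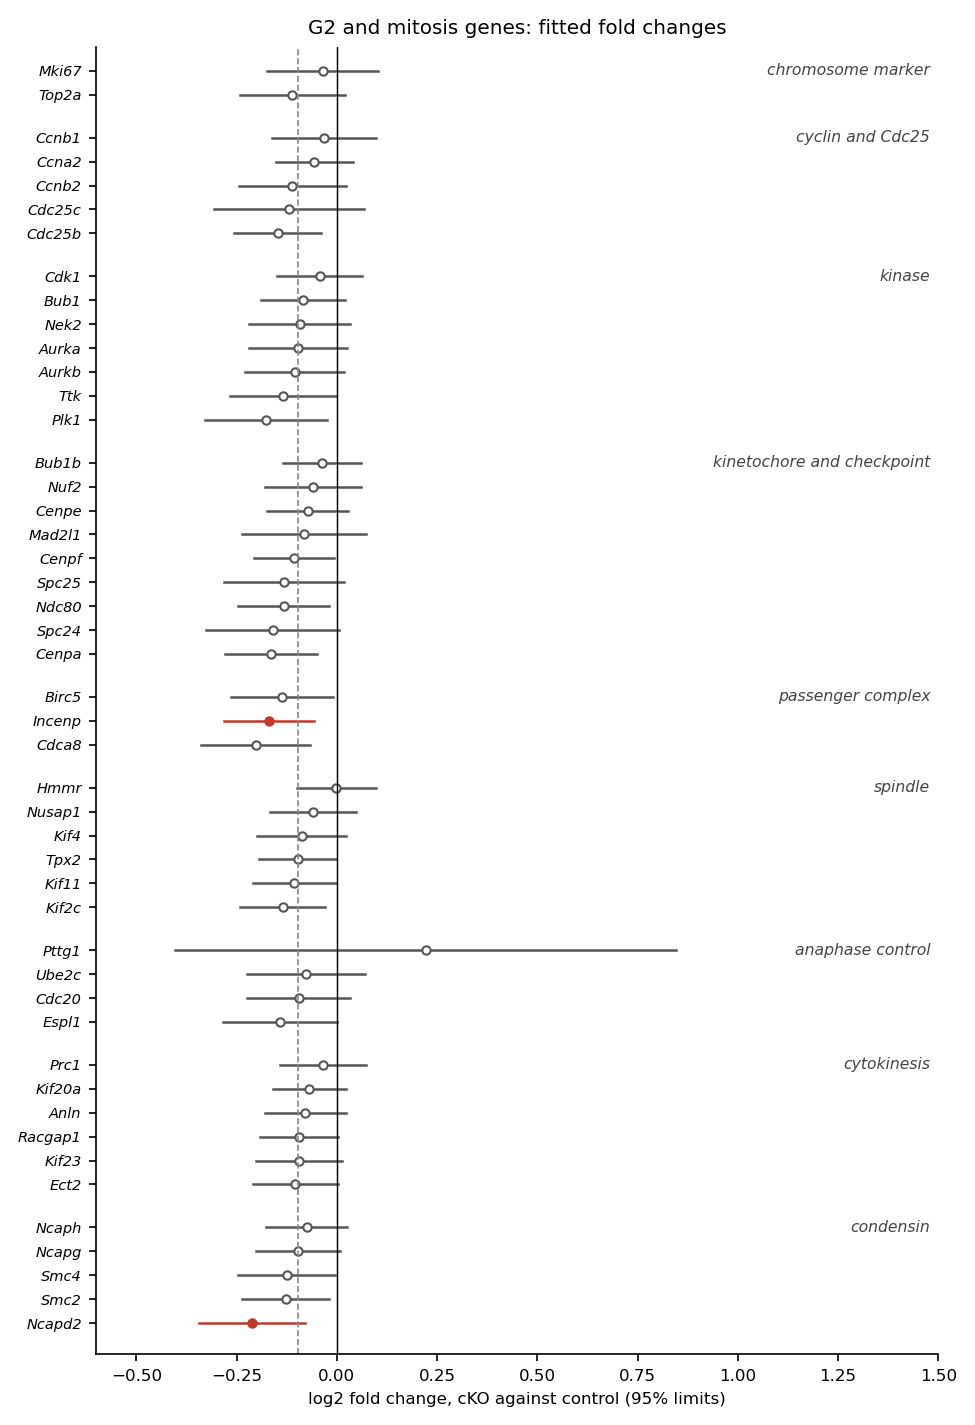
Fitted log2 fold changes of the 47 G2 and mitosis genes, cKO against control libraries, by role. Points are edgeR estimates and bars their 95% limits (n = 4 libraries per group); filled red points mark Incenp and Ncapd2, the 2 genes called lower, and the dashed line is the median of -0.10. Nearly all points lie left of 0, and Pttg1 has by far the widest limits.

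The offset was spread over the 4 cKO libraries rather than held by one of them. Measured as the log2 distance of each gene's CPM from its control mean, the median over the 47 genes was -0.06, -0.09, -0.08 and -0.11 in cKO replicates 1 to 4. In control replicates 1 to 4 it was -0.07, 0.06, 0.01 and 0.00. Control replicate 1 therefore lay within the range of the cKO libraries, and the groups overlapped. It was the lowest control for 31 of the 47 genes, and control replicate 2 was the highest control for 28. Many of the genes thus moved together between libraries, so the signs of their fold changes are not separate observations. Mitochondrial genes took 14.0%, 8.91%, 13.8% and 8.41% of the counts in control replicates 1 to 4, and 10.1% to 14.3% in the cKO libraries. The part of that share in the result was examined in 2 refits: the median of the 47 genes was -0.10 with the share as a covariate and -0.09 with the mitochondrial counts left out. Without control replicate 1 the median was -0.12, and without control replicate 2 it was -0.08.

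**Figure D2:**
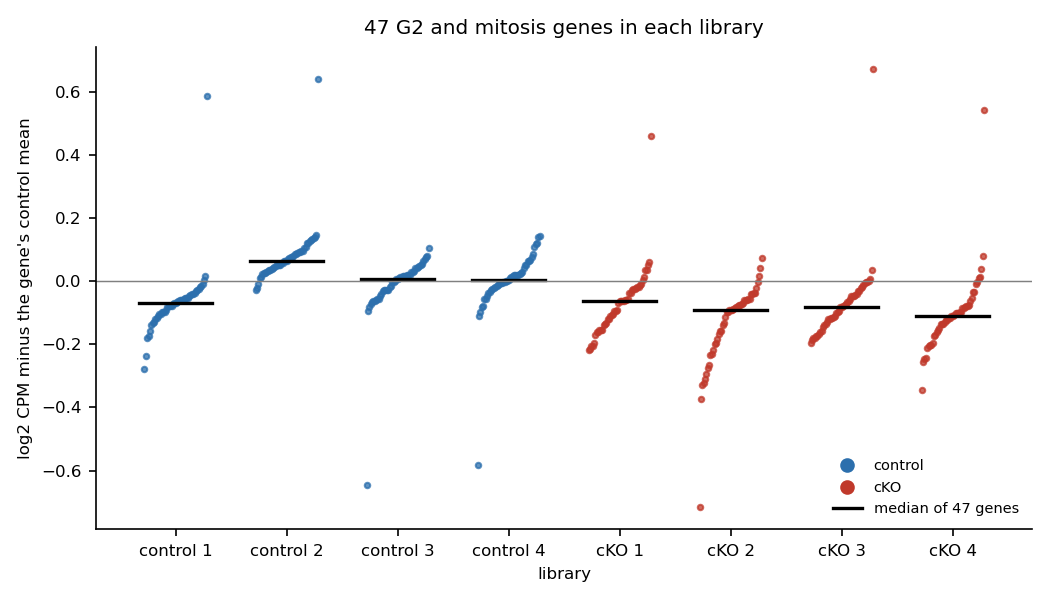
Each point is 1 of the 47 genes in 1 library, as log2 CPM minus the gene's mean over the 4 controls, and the black line is the median of the 47. The medians run from -0.11 to -0.06 in the cKO libraries and from -0.07 to 0.06 in the controls; the far points in each column are Pttg1.

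Promoters of these genes carry the letters of the CHR and of the CCAAT box more often than promoters of the genes tested as a whole. Sequences came from the RefSeq promoter table on GRCm38.p6, which covers 250 bases before to 50 bases after each transcription start and holds 39 of the 47 genes. The CHR was searched as TTTGAA or TTCGAA and the CCAAT box as CCAAT, each on both strands. CHR letters were found for 30 of the 39 genes (76.9%), against 15.6% of the genes tested that the table holds and 21.7% of all its genes. At least 1 CCAAT was also found for 30 of the 39 (76.9%), against 43.0% of the genes tested, and both motifs for 27 (69.2%), against 6.61%. Of promoters, 19.2% of all in the table hold CHR letters and 37.4% hold CCAAT. The 6 windows printed here run from base -150 to base 30 around the start, in the direction of transcription, with both motifs in capitals whichever strand they lie on. They show the called gene Ncapd2, its near neighbour in fold change Cdca8, the cell cycle engine genes Cdk1 and Ccnb2, the centromeric histone gene Cenpa, and Pttg1, the gene that stood apart.
Ncapd2, chr6:125191557-125191736, minus strand: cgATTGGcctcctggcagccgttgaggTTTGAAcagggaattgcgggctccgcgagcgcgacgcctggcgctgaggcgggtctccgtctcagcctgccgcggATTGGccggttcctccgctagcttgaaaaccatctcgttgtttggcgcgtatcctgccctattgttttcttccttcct
Cdca8, chr4:124936888-124937067, minus strand: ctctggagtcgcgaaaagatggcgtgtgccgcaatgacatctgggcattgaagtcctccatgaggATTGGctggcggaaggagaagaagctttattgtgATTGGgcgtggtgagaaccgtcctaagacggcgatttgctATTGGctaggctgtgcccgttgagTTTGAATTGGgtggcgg
Cdk1, chr10:69352883-69353062, minus strand: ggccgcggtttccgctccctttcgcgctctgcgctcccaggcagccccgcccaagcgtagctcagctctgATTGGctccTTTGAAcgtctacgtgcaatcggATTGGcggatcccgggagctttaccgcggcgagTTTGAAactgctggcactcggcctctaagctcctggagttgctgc
Ccnb2, chr9:70421525-70421704, minus strand: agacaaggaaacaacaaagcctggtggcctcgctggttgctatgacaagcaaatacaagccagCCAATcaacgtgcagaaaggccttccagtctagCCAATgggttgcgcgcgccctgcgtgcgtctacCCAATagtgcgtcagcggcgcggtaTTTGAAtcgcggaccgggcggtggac
Cenpa, chr5:30666736-30666915, plus strand: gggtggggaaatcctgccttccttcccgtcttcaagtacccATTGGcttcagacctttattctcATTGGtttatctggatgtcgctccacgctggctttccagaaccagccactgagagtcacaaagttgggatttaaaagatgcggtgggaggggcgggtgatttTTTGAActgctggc
Pttg1, chr11:43425952-43426131, minus strand: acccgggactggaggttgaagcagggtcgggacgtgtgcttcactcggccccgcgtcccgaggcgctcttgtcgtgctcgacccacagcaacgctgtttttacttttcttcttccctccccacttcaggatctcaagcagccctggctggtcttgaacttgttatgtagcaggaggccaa
Ncapd2, Cdca8, Cdk1, Ccnb2 and Cenpa each hold CHR letters and at least 2 CCAAT matches in these windows. In Cdca8 the CHR letters share their last base with a CCAAT match on the other strand, in the run TTTGAATTGG. In Cenpa the CHR letters begin 17 bases after the start, and in Ccnb2 a copy begins 5 bases after it. Pttg1 shows neither motif in its table window, as do Birc5, Mad2l1, Ncaph, Nuf2 and Nusap1, and among these 6 genes only Pttg1 was above 0. The Pttg1 window lies inside the gene as annotated in GENCODE M21 (43420250 to 43426251, minus strand). The Cdca8 window also lies inside its annotated gene (124918465 to 124939311, minus strand). For both genes, the bases before the annotated 5' end were therefore not searched. A match describes letters and not a bound factor. Whether motifs and fold changes go together over the genes was not tested. Ncapd2 and Cdk1 have both motifs, with log2 fold changes of -0.21 and -0.04, and Birc5 has neither and one of -0.14.

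The matches lay close to the start. CHR letters were found within the first 50 transcribed bases in 48.8% of the 41 promoters of these genes (Ect2 and Prc1 have 2 promoters each), against 1.67% of promoters of genes tested. CCAAT matches were most frequent just upstream, in 51.2% of the promoters between -50 and -1 and in 41.5% between -100 and -51, against 10.6% and 14.8%. DNA replication genes, which are transcribed earlier in the cell cycle, held CHR letters in 6 of 30 genes with a promoter in the table, and other mitotic genes in 43 of 95 (45.3%). CCAAT was found for 19 of the 30 replication genes (63.3%) and 54 of the 95 other mitotic genes (56.8%).

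**Figure D3:**
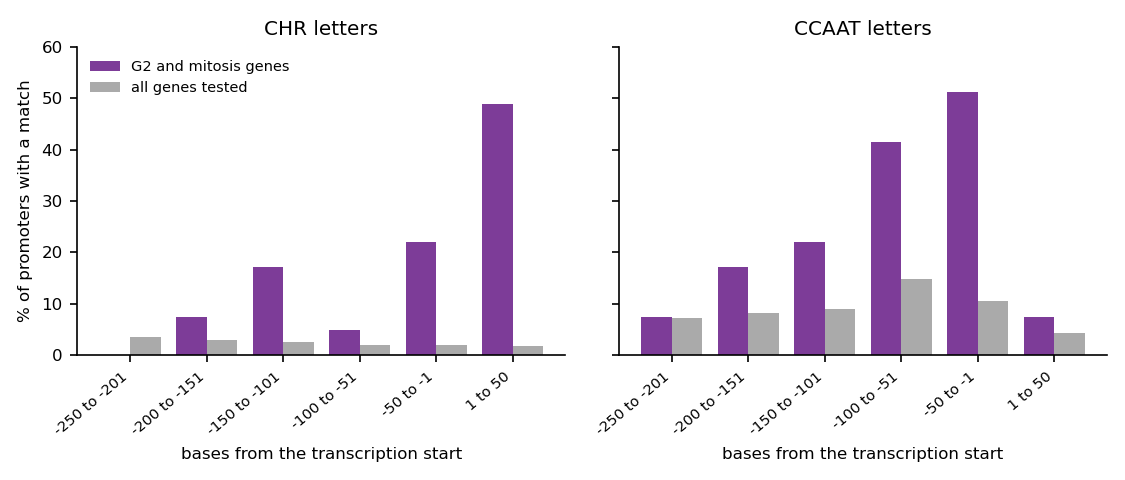
Share of promoters with a motif match in each 50-base interval around the transcription start (RefSeq, GRCm38.p6), for 41 promoters of G2 and mitosis genes (purple) and 13375 promoters of genes tested (grey). CHR letters peak at 48.8% just after the start and CCAAT letters at 51.2% just before it.

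The chromosome markers were the most abundant of the 47 genes, and neither passed the test. Per length, on the authors' FPKM scale, the control mean was 165 ± 10.5 for Top2a, DNA topoisomerase II alpha, and 126 ± 9.84 for Mki67, the Ki-67 protein that coats mitotic chromosomes (SD, n = 4). Mki67 was at 1197, 1342, 1132 and 1312 CPM in cKO replicates 1 to 4, against 1260, 1251, 1242 and 1355 CPM in the controls. The groups overlapped throughout, and the log2 fold change was -0.04 (95% limits -0.18 to 0.10). Top2a was at 1391, 1492, 1362 and 1298 CPM against 1417, 1535, 1563 and 1474 CPM. Here 3 of the 4 cKO libraries lay below every control, and the log2 fold change was -0.11 (95% limits -0.24 to 0.02; edgeR adjusted p = 0.30).

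None of the 5 cyclin and Cdc25 genes passed the test, and all 5 were below 0, with a median of -0.11. Cdc25b, the phosphatase that first activates cyclin B-Cdk1 at the G2/M transition, was at 61.4, 67.0, 65.9 and 63.9 CPM in the cKO libraries and at 68.9, 72.6, 72.4 and 72.1 CPM in the controls. All its cKO values lay below all its control values, yet the log2 fold change of -0.15 (SE 0.05) missed the threshold over all genes (edgeR adjusted p = 0.0773). Ccna2, cyclin A2, which acts in S phase and G2, was the most abundant of the group at 108 ± 6.79 FPKM in the controls. Its counts were 372, 366, 369 and 362 CPM in the cKO libraries and 371, 399, 385 and 373 CPM in the controls, so cKO replicate 1 lay just above control replicate 1. Its log2 fold change was -0.06 (95% limits -0.15 to 0.04). The mitotic cyclins Ccnb1 and Ccnb2 were at log2 -0.03 and -0.11, and the phosphatase gene Cdc25c was at -0.12.

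All 7 kinase genes were below 0 and none passed the test, with a median of -0.10. Cdk1, the kinase that drives mitotic entry, was at 138, 136, 139 and 130 CPM in the cKO libraries and at 128, 147, 138 and 147 CPM in the controls. Its cKO values fell inside the control range, and its log2 fold change was -0.04 (95% limits -0.15 to 0.06). Plk1, Polo-like kinase, which acts from centrosome maturation to cytokinesis, was at 43.0, 39.5, 43.2 and 49.9 CPM against 45.9, 51.3, 49.8 and 51.3 CPM. It was below every control in 3 of the 4 cKO libraries, and its log2 fold change was -0.18 (SE 0.07; edgeR adjusted p = 0.140). Without cKO replicate 4, its highest cKO library, Plk1 passed at log2 -0.24 (edgeR adjusted p = 0.0168; 0.0168 to 0.625 across the 18 alternatives). Of the others, Aurka and Aurkb, the Aurora kinases of the spindle poles and of the centromere, were at log2 -0.10 and -0.11, the centrosomal kinase Nek2 at -0.09, and the checkpoint kinases Ttk and Bub1 at -0.13 and -0.08.

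The 9 kinetochore and checkpoint genes were all below 0 with a median of -0.11, and none passed the test. In 3 of them, Cenpa, Cenpf and Ndc80, all cKO libraries lay below all controls, against 6.21% of all genes tested. Cenpa, the histone H3 variant that marks centromeres, was at 54.2, 51.3, 54.5 and 55.4 CPM in the cKO libraries and at 57.1, 62.7, 61.1 and 60.5 CPM in the controls, a log2 fold change of -0.16 (SE 0.05; edgeR adjusted p = 0.0626). It passed without cKO replicate 4, at log2 -0.18 (edgeR adjusted p = 0.0491; 0.0491 to 0.296 across the 18 alternatives). Bub1b, the BubR1 checkpoint protein gene and the most abundant of this group per length at 44.8 ± 3.45 FPKM in the controls, was at 190, 190, 193 and 180 CPM against 181, 202, 199 and 192 CPM. Its groups overlapped, with a log2 fold change of -0.04 (95% limits -0.13 to 0.06). The 4 subunits of the Ndc80 complex, which binds microtubules, were at log2 -0.13 (Ndc80), -0.06 (Nuf2), -0.16 (Spc24) and -0.13 (Spc25). Spc24 passed without control replicate 1, at log2 -0.23 (edgeR adjusted p = 0.0437; 0.0437 to 0.502 across the 18 alternatives). The kinesin Cenpe was at log2 -0.07, the kinetochore protein Cenpf at -0.11 and the checkpoint protein Mad2l1 at -0.08.

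The chromosomal passenger complex, the scaffold that carries Aurora B to centromeres and then to the midzone, had the lowest median of the 9 role groups, at -0.17 over 3 genes. Incenp (chromosome 19, 9872296 to 9899551, minus strand) was at 105, 92.0, 101 and 104 CPM in the cKO libraries and at 108, 117, 108 and 118 CPM in the controls. No cKO value reached a control value, although the nearest were 105 and 108 CPM. Incenp fell by 0.17 on the log2 scale (SE 0.05, 95% limits -0.28 to -0.06; edgeR adjusted p = 0.0497), a difference of -11.0%. An exact two-sided permutation test gave p = 0.0286, the smallest that 70 assignments allow. Every gene without overlap gets that value, so it adds nothing to the lack of overlap. Cdca8, the borealin gene, was at 75.3, 65.5, 73.4 and 70.6 CPM against 78.0, 89.8, 84.4 and 75.9 CPM. It too showed no overlap, and its log2 fold change of -0.20 (SE 0.06) just missed the threshold (edgeR adjusted p = 0.0525). Birc5, survivin, was at log2 -0.14 (edgeR adjusted p = 0.171). Aurkb, the kinase of the complex, is given with the kinases.

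The call of Incenp was near the threshold on both sides. It was lost in 11 of 18 alternatives, with adjusted p from 0.0268 to 0.381 (edgeR and DESeq2), and its log2 fold change ran from -0.19 to -0.11. Leaving out single libraries ended it without cKO replicate 2 (edgeR adjusted p = 0.140), cKO replicate 3 (0.0921), control replicate 2 (0.129), control replicate 3 (0.0595) or control replicate 4 (0.159). Cdca8 moved the other way and passed in 5 of 18 alternatives, among them without cKO replicate 1 (edgeR adjusted p = 0.0476) and without control replicate 4 (0.0374), and from 0.0262 to 0.292 across all 18. With the male libraries alone, Incenp was at log2 -0.11 (edgeR adjusted p = 0.351) and Cdca8 at -0.17 (0.261).

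The 6 spindle genes were below 0 with a median of -0.09, and none passed the test. Kif2c, a kinesin that takes apart microtubule ends, was at 80.2, 76.8, 81.7 and 79.4 CPM in the cKO libraries and at 86.3, 92.9, 82.9 and 87.1 CPM in the controls. The groups did not overlap, but cKO replicate 3 came close to control replicate 3, and the log2 fold change was -0.13 (SE 0.05; edgeR adjusted p = 0.101). Tpx2, the activator of Aurora A on the spindle and the most abundant of the group per length at 70.03 ± 4.76 FPKM in the controls, was at 297, 308, 323 and 306 CPM against 317, 339, 330 and 334 CPM, a log2 fold change of -0.10 (edgeR adjusted p = 0.202). Only cKO replicate 3 reached into its control range. Kif11, the motor that pushes spindle poles apart, was at log2 -0.11, the chromokinesin Kif4 at -0.09 and the microtubule-binding protein Nusap1 at -0.06. Kif4 lies on the X chromosome, and with the male libraries alone it was at log2 -0.13. Hmmr, a spindle assembly factor, was level at log2 -0.00 (95% limits -0.10 to 0.10) and changed sign in 9 of 18 alternatives.

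Anaphase control was the role group in which a gene stood apart. Pttg1, securin, holds separase inactive until anaphase, and its counts divided the libraries in both genotypes. They were 29.2, 12.9, 33.9 and 31.0 CPM in cKO replicates 1 to 4, against 32.0, 33.1, 13.6 and 14.2 CPM in control replicates 1 to 4. The low libraries were cKO replicate 2 and control replicates 3 and 4, at most 14.2 CPM, and the other 5 were all at 29.2 CPM or more. The fitted log2 fold change of 0.22 (SE 0.29, 95% limits -0.40 to 0.85; edgeR adjusted p = 0.720) therefore carried the widest error of the 47 genes, and it ranged from 0.03 to 0.63 over 18 alternatives. Male and female libraries were found on both sides, and so were libraries with low and high mitochondrial shares. Among the other 46 genes, the value farthest from its control mean in any library was that of Ncapd2 in cKO replicate 2, at log2 -0.37.

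The other 3 anaphase genes were below 0 and did not pass. Espl1, separase itself and the least abundant of the 47 genes per length at 8.55 ± 0.759 FPKM in the controls, was at 52.0, 47.2, 52.1 and 55.7 CPM in the cKO libraries and at 55.0, 62.5, 57.9 and 53.4 CPM in the controls, a log2 fold change of -0.14 (SE 0.07; edgeR adjusted p = 0.207). The groups overlapped through cKO replicate 4. Cdc20, an activator of the anaphase-promoting complex, was at 91.9, 97.7, 103 and 95.9 CPM against 93.9, 114, 107 and 99.5 CPM, a log2 fold change of -0.10 (edgeR adjusted p = 0.375). Ube2c, the ubiquitin-conjugating enzyme of that complex, was at log2 -0.08.

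**Figure D4:**
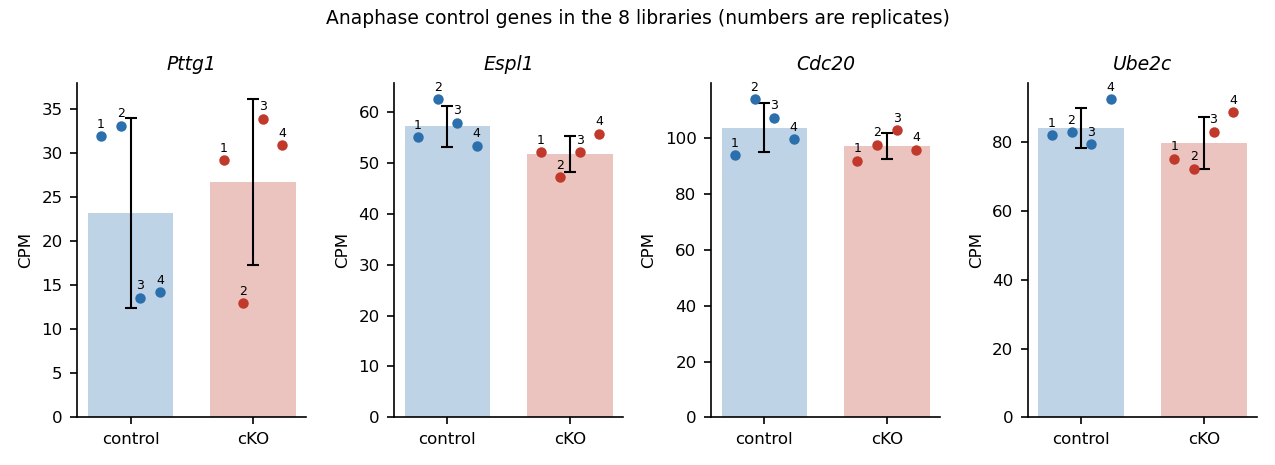
CPM of the 4 anaphase control genes in each library; numbers are replicate numbers, bars are group means and error bars 1 SD (n = 4). Pttg1 splits into values of at most 14.2 CPM and of at least 29.2 CPM in both genotypes, whereas Espl1, Cdc20 and Ube2c each form a single cloud.

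All 6 cytokinesis genes were below 0, with a median of -0.09, and none passed the test. Ect2, the exchange factor that activates RhoA at the cleavage furrow, was at 141, 129, 136 and 129 CPM in the cKO libraries and at 138, 153, 148 and 136 CPM in the controls. The groups overlapped, and the log2 fold change was -0.10 (SE 0.05; edgeR adjusted p = 0.220). Kif20a, a kinesin of the central spindle and the most abundant of the group per length at 43.7 ± 3.46 FPKM in the controls, was at 152, 160, 165 and 160 CPM against 160, 175, 164 and 170 CPM, a log2 fold change of -0.07 (edgeR adjusted p = 0.372). Kif23 and Racgap1, which together form centralspindlin, were both at log2 -0.09, the microtubule bundler Prc1 at -0.03 and the furrow scaffold anillin (Anln) at -0.08.

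Condensin I, which compacts mitotic chromosomes, held the gene with the lowest fold change. Ncapd2 (chromosome 6, 125168007 to 125191701, minus strand) was at 318, 285, 328 and 343 CPM in the cKO libraries and at 346, 377, 396 and 357 CPM in the controls. The groups did not overlap, and cKO replicate 4 and control replicate 1 were the nearest. Ncapd2 fell by 0.21 on the log2 scale (SE 0.06, 95% limits -0.34 to -0.08; edgeR adjusted p = 0.0368), a difference of -13.7% (95% limits -21.2% to -5.41%). The exact two-sided permutation p of 0.0286 again follows from the lack of overlap alone. Of its 18 alternatives 10 ended the call, with a log2 fold change of -0.25 to -0.16 throughout and adjusted p from 0.00618 to 0.282. The single libraries whose omission ended it were cKO replicate 1 (edgeR adjusted p = 0.0742), cKO replicate 2 (0.0935), cKO replicate 3 (0.0603), control replicate 2 (0.0940), control replicate 3 (0.120) and control replicate 4 (0.0569). The small RNA gene Scarna10 lies within Ncapd2 on the same strand over 325 bases and had 845 CPM on average, and the 2 genes may share reads. Its log2 fold change was -0.05 (edgeR adjusted p = 0.747).

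The other 4 condensin genes did not pass. Smc4, one of the ATPase subunits and the most abundant per length at 92.6 ± 7.65 FPKM in the controls, was at 463, 434, 432 and 393 CPM in the cKO libraries and at 459, 494, 450 and 476 CPM in the controls. The groups overlapped through cKO replicate 1, and the log2 fold change was -0.12 (SE 0.06; edgeR adjusted p = 0.193). Its partner Smc2 was at log2 -0.13 with no overlap between groups, and passed without cKO replicate 1 at -0.17 (edgeR adjusted p = 0.0479; 0.0479 to 0.367 across the 18 alternatives). The subunit genes Ncapg and Ncaph were at log2 -0.10 and -0.08. Including Ncapd2, 11 of the 47 genes overlap another gene of the table, the other 10 on the opposite strand, and the strand setting of the counting is not known here. Among them are Cdca8, Cdc25b, Ccna2, Cdc20 and Kif20a.

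Other mitotic genes, listed by role apart from the 47, were also offset as a set, but unevenly by role. Median log2 fold changes ran from -0.11 for 7 cytokinesis genes to -0.03 for 16 genes of the anaphase-promoting complex, 11 of them below 0. Of 112 tested, 6 fell, 0 rose and 98 were below 0, with a median of -0.08. Over all genes tested, 3.46% fell, 8.35% rose and 52.4% were below 0. The 6 were Rbl1 (log2 -0.30), the pocket protein p107 of the DREAM complex, the kinetochore and centromere genes Pmf1 (-0.24), Kntc1 (-0.18) and Oip5 (-0.28), and the spindle genes Kif15 (-0.17) and Dlgap5 (-0.22). Rbl1 was at 77.3, 73.2, 69.3 and 67.0 CPM in the cKO libraries and at 93.6, 89.1, 87.7 and 83.6 CPM in the controls, without overlap, and its call (edgeR adjusted p = 0.00227) was kept in all 18 alternatives. Those of the other 5 were lost in 5 to 10 of 18, in each case with the male libraries alone among others. Single libraries whose omission ended a call were control replicates 2 and 4 for Pmf1 (edgeR adjusted p = 0.0584 and 0.0741) and Dlgap5 (0.0588 and 0.0658), and control replicate 1 for Oip5 (0.0505). For Kif15 they were cKO replicate 3 (edgeR adjusted p = 0.0618) and control replicates 2 and 3 (0.0772 and 0.0610). For Kntc1 they were cKO replicates 2, 3 and 4 (edgeR adjusted p = 0.0836, 0.0673 and 0.0539) and control replicates 2 and 4 (0.0817 and 0.112). Foxm1 and Mybl2, which encode the activators FOXM1 and B-MYB of G2 and mitosis genes, did not pass. Foxm1 was at 62.6, 50.1, 61.6 and 72.0 CPM against 69.3, 71.3, 71.5 and 72.2 CPM (log2 -0.21, SE 0.08; edgeR adjusted p = 0.136), so that cKO replicate 4 lay within the narrow control range and the other cKO libraries below it. Without cKO replicate 4, Foxm1 passed at log2 -0.29 (edgeR adjusted p = 0.0171; 0.0171 to 0.722 across the 18 alternatives). Mybl2 was at log2 -0.05 (SE 0.09) and changed sign in 3 alternatives.

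Genes of DNA replication were offset at least as much as those of mitosis. Of 39 replication genes, 11 fell, 0 rose and 36 were below 0, with a median of -0.12. The shares over all genes tested were 3.46% lower, 8.35% higher and 52.4% below 0. Those with the smallest p were Chaf1a (log2 -0.30), which assembles chromatin behind the fork, Uhrf1 (-0.33), which maintains DNA methylation, the licensing factor Cdt1 (-0.30) and the DNA ligase Lig1 (-0.23). With sex as a covariate the calls of Chaf1a, Uhrf1 and Lig1 were lost, at log2 -0.25, -0.28 and -0.19. That of Lig1 was also lost with library size alone, at log2 -0.20 (edgeR adjusted p = 0.0549). Over 18 alternatives the number called lower ran from 2 to 12 and the median from -0.15 to -0.10. The summed CPM of the 39 was 3758 ± 55.3 in the cKO libraries and 4130 ± 145 in the controls (SD, n = 4), without overlap. The summed CPM of the 47 G2 and mitosis genes was 8911 ± 128 against 9498 ± 293, and its ranges, 8772 to 9025 and 9095 to 9798, did not overlap either. Mki67 and Top2a together made up 2632 CPM of it in the cKO libraries and 2774 CPM in the controls, on average. The median over the 47 genes per library, which weights each gene alike, did overlap between the groups. The ratio of the G2 and mitosis sum to the replication sum was 2.37 ± 0.0566 in the cKO libraries and 2.30 ± 0.0101 in the controls. In this ratio cKO replicate 3 lay within the control range. Among 12 genes of G1 control, Ccnd1 and E2f1 fell (log2 -0.35 and -0.22) and Ccnd2 and Ccne1 rose (1.69 and 0.34). The calls of Ccnd1 and Ccnd2 held in all 18 alternatives. That of E2f1 held in 12 of the 18, with an adjusted p of up to 0.113 (edgeR), and was lost, among other settings, without control replicate 2 (0.0650) or control replicate 4 (0.0559). That of Ccne1 held in 13 of the 18, with an adjusted p of up to 0.196 (edgeR), and was lost, among other settings, without cKO replicate 3 (0.0549) or control replicate 3 (0.0592).

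Markers of retinal progenitors, the dividing cells of this tissue, were lower in the same libraries. Of 10 progenitor markers, 0 rose and 9 were below 0, and Nr2e1 and Fgf15 were among those that fell. Of all genes tested, 8.35% rose, 3.46% fell and 52.4% were below 0. The Fgf15 call (log2 -0.31; edgeR adjusted p = 0.0091) was lost with the male libraries alone (0.0876) and with sex as a covariate (0.11). The median log2 fold change of the 10 was -0.09. Their summed CPM was 3053 ± 137 in the cKO libraries and 3507 ± 67.9 in the controls, without overlap, and the ratio of the G2 and mitosis sum to it was 2.92 ± 0.167 against 2.71 ± 0.0440. The ratio in cKO replicate 4, 2.72, lay within the control range of 2.66 to 2.75. Fgf15 alone made up 1078 CPM of the progenitor sum in the cKO libraries and 1337 CPM in the controls, on average. Of 6 photoreceptor markers tested, which mark cells that have left the cycle, 4 rose (Crx, Otx2, Nrl and Rxrg) and 0 fell, with summed levels of 834 to 894 CPM against 749 to 769 CPM. Of 8 ganglion cell markers, 3 fell and 0 rose, with summed levels of 1870 to 1940 CPM against 1932 to 2278 CPM.

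Markers of cells from outside the neural retina were measured in the same libraries, where 8.35% of all genes tested rose and 3.46% fell. Of 6 microglial markers, 3 rose, and their sum was 34.5 to 41.1 CPM in the cKO libraries against 26.1 to 32.3 CPM. Of 6 mesenchyme markers tested, 2 rose, with sums of 22.7 to 73.0 CPM against 22.7 to 48.9 CPM. Erythroid markers, from cells that also divide in the embryo, summed to 92.0 to 879 CPM in the cKO libraries and 162 to 1298 CPM in the controls, and 0 of 7 tested were called. Of 3 endothelial markers tested, Cldn5 rose (log2 0.43) and Kdr fell (log2 -0.24), and the sum, nearly all of it Kdr, was 271 to 308 CPM in the cKO libraries against 320.4 to 349 CPM, without overlap. The endothelial markers Pecam1 and Cdh5 stayed under 1 CPM in every library, whereas Kdr reached 341 CPM. The sum thus follows Kdr and is not read as a level of endothelial cells. Lens markers summed to 12.3 CPM in cKO replicate 2, 17.3 CPM in control replicate 1 and at most 3.93 CPM in the other 6. Without those 2 libraries the median of the 47 genes was -0.12, with 46 below 0 and 0 called. The part of the progenitor, photoreceptor, ganglion cell, microglial, mesenchyme, erythroid, Kdr and Cldn5 levels in the offset was not tested.

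**Figure D5:**
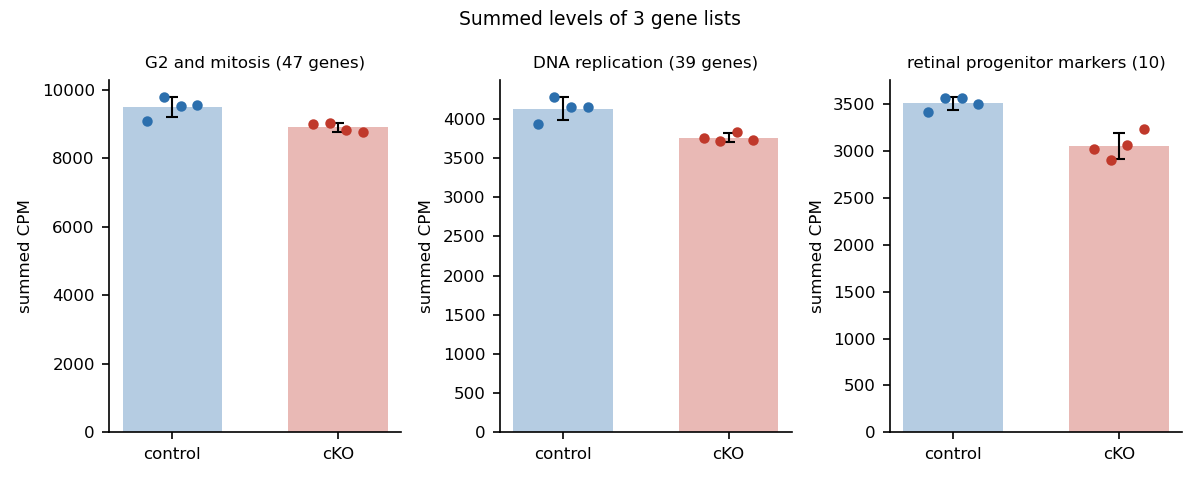
Summed CPM of the 47 G2 and mitosis genes, of 39 DNA replication genes and of 10 retinal progenitor markers; points are libraries, bars group means and error bars 1 SD (n = 4). In each panel the 4 cKO libraries lie below the 4 controls, at 8911 against 9498, 3758 against 4130 and 3053 against 3507 CPM on average.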

How the data were processed

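RNA-seq values for 8 libraries (4 cKO, 4 control, grouped by their titles) came from 1 deposited table. The submitters' processing notes name Novoalign 2.08.01, the mm10 build and DESeq2. Counter, annotation release and strand setting remain not given in the sources used here. Counts per gene were deposited by the authors as whole numbers, without normalisation. The authors' FPKM values, scaled by gene length and library, were used only to compare levels between genes. The authors' log2 ratio was used as a check, and their adjusted p, deposited as a score on an unnamed scale, was not used.

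The counts were tested with edgeR 4.0.16 (R 4.3.3): TMM normalisation, filterByExpr (minimum count 10, 15014 genes left, with nearly all of the counts), glmQLFit and glmQLFTest without covariates, Benjamini-Hochberg adjustment over all genes tested, and calls at an adjusted p under 0.05. Standard errors were derived from the F statistic of that test. An exact permutation test over 70 assignments of the libraries was run on single genes and is given for the called genes among the 47. With total counts of 13994825 to 18391647, 3 counts in a library equal 0.163 to 0.214 CPM. The parts of replicate spread and counting error in the precision were not separated. The procedure was tested on simulated data. Library pairs within a group differed by a chi-square of 4.79 to 25.1 per degree of freedom, so none was taken for a repeat. Repeated symbols (66) were read from the row with the most counts, and 19 rows had no symbol. Coordinates were taken from GENCODE M21 (mm10) by Ensembl identifier (15833 of 16096 matched, all 47 genes among them), and promoters from RefSeq on GRCm38.p6.

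The 47 genes and all lists were chosen with earlier results of these data known. Values in every library are given for called genes, for the gene with the smallest p and the one with the highest FPKM in each role group, and for Mki67, Top2a and Cdk1; Cdca8 and Pttg1 were added after their values were seen, and a certain marker gene is not reported here by itself. Alternatives, 18 in all, were DESeq2 1.42.0, its size factors in edgeR, library size alone, no filter, a replicate block, sex or mitochondrial share as a covariate, mitochondrial counts left out, male libraries alone, no libraries with over 5 CPM of crystallins, and each library left out.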

Additional observations from a re-analysis of the deposited data

Results flagged for a closer look

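In 4 of 100 groups of 4 libraries examined among the 47 genes and summed levels, 1 library lay far from the other 3; chance alone marks about 1 group in 20. Mki67 was at 1355 CPM in control replicate 4, and the next control was at 1260 CPM. Cdc25b was at 68.9 CPM in control replicate 1, below 72.1 CPM in the next control. Ndc80 was at 86.5 CPM in control replicate 2, above 80.9 CPM in the next control. Ncaph was at 106 CPM in control replicate 1, below 116 CPM in the next. All 4 lay in the control group.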

How the results depend on the processing

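Over 18 alternatives, 44 to 46 of the 47 genes stayed below 0, their median stayed between -0.12 and -0.08, and 0 were called higher. The 2 lower calls were not stable: 0 were called with library size alone, male libraries alone, sex as a covariate or without the libraries with lens crystallin counts, 1 with mitochondrial counts left out, and 0 to 4 when single libraries were left out (4 without cKO replicate 4). All genes called lower numbered 273 with library size alone, 255 in males, 246 with sex as a covariate, 323 without the lens libraries, and 329 (without control replicate 3) to 667 (without cKO replicate 4) without single libraries; those called higher numbered 800 in males and 795 with sex as a covariate. The cause of these moves was not tested.

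Among the 47 genes, Foxm1, Mybl2 and Ezh2, signs turned for the following, and the cause was not tested. Hmmr was at 0.0207 with library size alone, 0.0004 in males, 0.0015 with mitochondrial counts left out, 0.0072 with their share as a covariate, 0.0005 with sex as a covariate, and -0.0225 to 0.0351 without single libraries. Mad2l1 was at 0.0032 in males and 0.0033 with sex as a covariate, and Mybl2 at 0.0259 and 0.0262. Without single libraries Mki67 ran from -0.0733 to 0.0076, Ccnb1 from -0.0658 to 0.0087 and Mybl2 from -0.105 to 0.0267.

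With the labels' numbers as a replicate block, 1 gene was called lower (Ncapd2) and Hmmr was at 0.0002. The deviations of same-numbered libraries had correlations of 0.23, -0.07, -0.00 and 0.18. Those of unlike-numbered libraries ran from -0.22 to 0.16, so 0.23 and 0.18 were the highest of all. These values do not settle whether the numbers pair the samples. The labels do not say what the numbers mark, and the main fit did not use them.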

Other observations

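The division of the libraries by Pttg1 was looked for in other genes after its values were seen, among 14300 genes with a mean above 1 CPM. The genes whose log2 CPM followed it most closely over the 8 libraries were Acrbp, Gm12663 and Zscan21, with Pearson correlations of 0.98, 0.98 and 0.96. They were picked for that match, so their own split is no separate support for it. How many of the 14300 genes would match as closely by chance was not tested. Gm12663 was at 0.348, 0.0701 and 0.167 CPM in cKO replicate 2 and control replicates 3 and 4, where Pttg1 was low, and at 2.16 to 2.89 CPM in the other 5. Zscan21 was at 66.5, 66.6 and 68.8 CPM in the same 3 libraries and at 75.1 to 79.9 CPM in the other 5. Acrbp was at 1.11, 0.982 and 1.11 CPM against 1.54 to 1.64 CPM. Pttg1 lies on chromosome 11, Acrbp on chromosome 6 and Zscan21 on chromosome 5.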
